A study of Macaca mulatta with 10 samples.

Results

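The genes described here are those of the spliceosome and of the hnRNP proteins, measured in lymph nodes of rhesus macaques. They were chosen by symbol: every row of the authors' gene table whose symbol starts with SNRP, HNRP, HNRNP, SFRS, SF3A or SF3B was taken, which gave 62 of 18622 rows. The rule reads symbols and no measured value, though it was set with earlier results of these data known. The families held 13 SNRP genes, 24 HNRP genes (with HNRNPG-T), 16 SFRS genes, 3 SF3A genes and 6 SF3B genes. Symbols are those of the authors' table, in which HNRPL is the older form of HNRNPL and SFRS7 that of SRSF7.

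The spliceosome removes introns from pre-mRNA. It is built from small nuclear ribonucleoproteins (snRNPs), whose Sm proteins form a ring around each small nuclear RNA and whose specific proteins recognise the splice sites. The SF3A and SF3B complexes belong to the U2 snRNP and hold it at the branch point. SR proteins, here under SFRS symbols, mostly promote exon inclusion from enhancer sequences, while many hnRNP proteins coat nascent transcripts and repress or shift splice site use. In lymphocytes such factors set the isoforms of surface proteins, of which the exons of the CD45 phosphatase are the best known case.

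Expression was measured on Illumina Human Ref 8 v 3.0 bead arrays, 1 array for each of 10 male rhesus macaques (Macaca mulatta) sampled for lymph node. 5 animals had lived under stable and 5 under unstable social conditions, and the labels give no strain or treatment. Age was labelled, without a unit, as 5.73 to 5.87 for the stable group, as 6.7 to 6.84 for the first 3 unstable animals, and as 5.62 and 5.61 for the last 2. Slide 2 held stable animals 1 to 4 alone, slide 3 held only unstable animals 4 and 5, and slide 1 was the one slide with both conditions, with stable animal 5 and the 3 older unstable animals. Slide and age label thus differ between the groups along with social condition. Nothing in the labels says more of how the conditions were made, and p-values set a difference of means against the spread between these animals. The arrays carry probes for human transcripts, and values are log2 signals from the authors' table. Signal was taken to be above background where it passed a threshold set from the dim end of each array, at 6.88 to 6.89 log2 units. The lymph node label was checked against lymphocyte markers: 9 of 10 T cell genes and 7 of 11 B cell genes were above background on all 10 arrays, while MS4A1, PAX5, BLK and TRAT1 were above it on none. In bulk tissue, fewer cells of a type and less RNA per cell cannot be told apart.

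Most of these genes gave a clear signal. Of the 62, 49 were above background on all 10 arrays (79.0%), where 34.8% of all gene rows were, 4 were above it on some arrays and 9 on none. All 6 SF3B genes, 10 of 13 SNRP genes, 19 of 24 HNRP genes, 12 of 16 SFRS genes and 2 of 3 SF3A genes were above background on all 10 arrays. The median signal was 8.47 for SNRP, 8.33 for HNRP, 9.54 for SFRS, 7.58 for SF3A and 9.51 log2 units for SF3B, against 6.78 for all rows. Brightness differs between probes for reasons other than transcript number, so these medians describe signals and rank no transcripts.

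**Figure D1:**
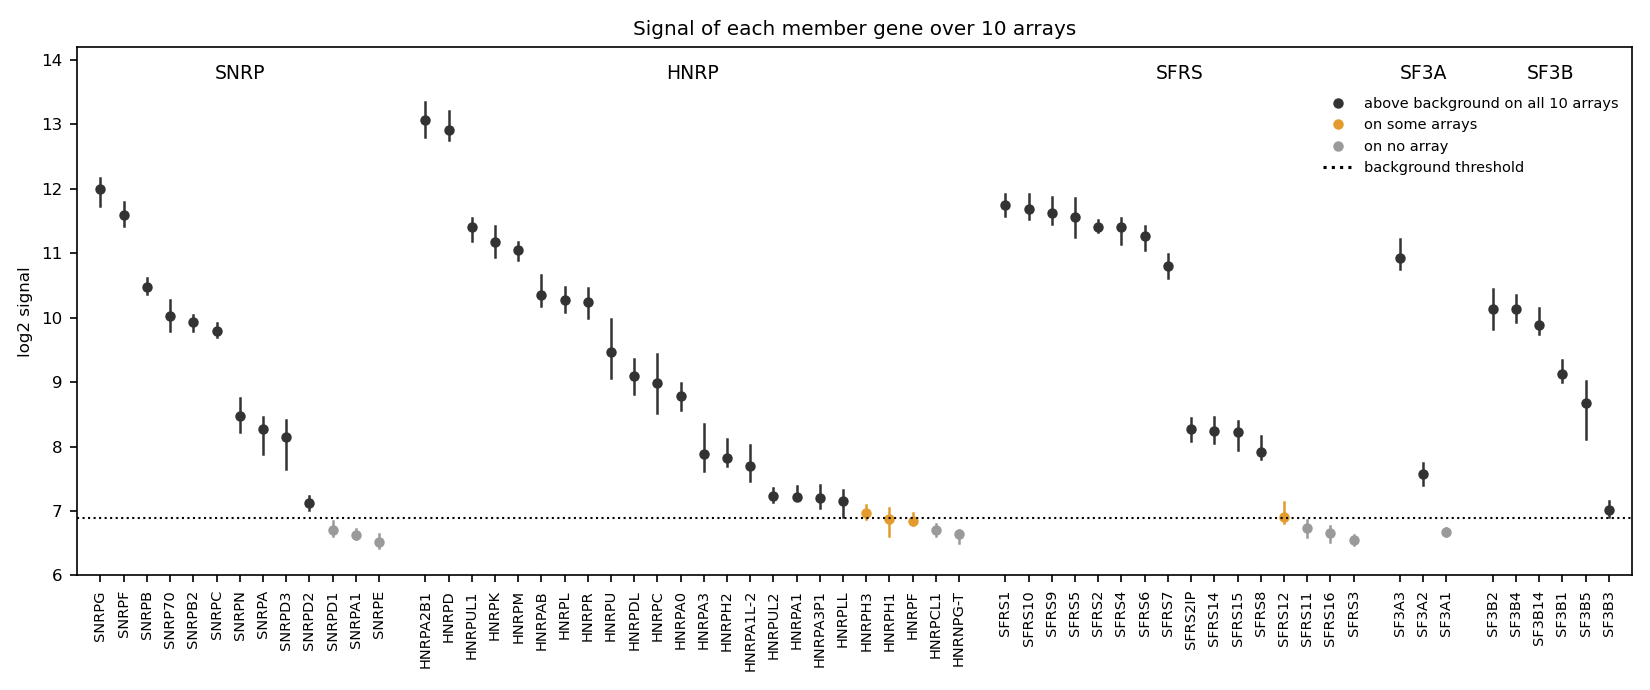
Log2 signal of each of the 62 genes, grouped by family and sorted by mean. Points are means over 10 arrays and vertical lines run from the lowest to the highest array; the dotted line is the mean background threshold. Signals run from 6.52 for SNRPE to 13.06 for HNRPA2B1, and 9 genes lie under the line on every array.

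Among the proteins of the Sm ring, mean signals ran from 6.52 to 11.99 log2 units. SNRPG was highest, with a stable mean of 11.95 ± 0.179 (SD, n = 5) and an unstable mean of 12.04 ± 0.0744 (SD, n = 5). SNRPF followed with means of 11.51 and 11.69, and SNRPB, whose gene also gives the B' isoform, with 10.47 and 10.48. SNRPD3 stood at 8.20 and 8.11 and SNRPD2 at 7.11 and 7.13. SNRPD1 and SNRPE were above background on no array, although the ring needs each of these proteins in every cell. Whether the human probes of SNRPD1 and SNRPE bind macaque transcripts was not tested, so these arrays give no level for either gene.

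The proteins specific to single snRNPs were mostly measured. SNRP70, the U1 protein that binds the first stem of U1 RNA, had means of 10.01 ± 0.157 (SD, n = 5) and 10.05 ± 0.18 (SD, n = 5) in stable and unstable animals. SNRPC, which helps U1 recognise the 5' splice site, stood at 9.77 and 9.84, and SNRPA, the U1 A protein, at 8.31 and 8.25. SNRPB2 of the U2 snRNP was above background on all 10 arrays, with a mean of 9.94 in stable animals, while its U2 partner SNRPA1 was above it on none. SNRPN, an imprinted gene whose product replaces the B protein mainly in brain, was also measured on all arrays, at 8.40 ± 0.133 (SD, n = 5) and 8.54 ± 0.14 (SD, n = 5). In the U2 complexes, SF3A3 had means of 10.92 and 10.93 and SF3B2 of 10.22 and 10.04. SF3B1, the large subunit at the branch point, stood at 9.16 and 9.08, and SF3B14, which contacts the branch point adenosine, at 9.88 and 9.90. SF3A1, the largest SF3A subunit, was above background on no array.

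The SFRS rows fell into separate bands of signal. SFRS1, SFRS10, SFRS9, SFRS5, SFRS2, SFRS4, SFRS6 and SFRS7 had means over 10 arrays between 10.80 and 11.75, and no other SFRS row exceeded 8.27. All 8 code for proteins with an RNA-binding domain and a serine/arginine-rich region, and SFRS10 is the older symbol of TRA2B. SFRS2IP, SFRS14, SFRS15 and SFRS8 lay between 7.92 and 8.27. SFRS12 was above background on 6 arrays, and SFRS11, SFRS16 and SFRS3 on none. SFRS3, a widely expressed SR protein, was thus apart from the other classical SR proteins, at 6.54 in stable and 6.57 in unstable animals; the bands were described after the values were seen.

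The hnRNP genes held the brightest rows. HNRPA2B1, which binds nascent transcripts and sorts RNAs for transport, had a stable mean of 12.98 ± 0.186 (SD, n = 5) and an unstable mean of 13.14 ± 0.167 (SD, n = 5). HNRPD, which also binds AU-rich elements of short-lived mRNAs under the name AUF1, stood at 12.89 ± 0.04 (SD, n = 5) and 12.93 ± 0.165 (SD, n = 5). HNRPK, which binds poly(C) stretches, and HNRPM had means of 11.12 and 11.08 in stable animals. HNRPA1, among the most abundant hnRNP proteins in human cells, gave only 7.21 and 7.24. HNRPF was above background on 2 arrays, HNRPH1 on 4 and HNRPH3 on 8, while HNRPCL1 and HNRNPG-T were above it on none. HNRNPG-T is known as a germ cell gene in human testis. HNRPLL, which silences variable exons of CD45 in activated human and mouse T cells, was above background on all 10 arrays. Its values were 7.26, 6.97, 6.91, 7.28 and 7.33 in stable animals 1 to 5 and 7.13, 7.14, 7.17, 7.04 and 7.27 in unstable animals 1 to 5. The unstable values lay inside the range of the stable ones, with equal means of 7.15. HNRPA1L-2, HNRPA3P1 and HNRPCL1 are near copies of HNRPA1, HNRPA3 and HNRPC, and how far probes bind each other's transcripts was not tested.

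Between animals, members varied by amounts near those of other rows with signal. Over the 49 genes above background on all 10 arrays, the median SD within groups was 0.121 log2 units, beside 0.134 for all 6482 rows of that kind. By family that median was 0.119 for SNRP, 0.137 for HNRP, 0.121 for SFRS, 0.111 for SF3A and 0.127 for SF3B. The steadiest genes were HNRPUL2, SF3B3 and SFRS2, with SDs within groups of 0.0607, 0.0675 and 0.0708. SFRS2, the SR protein also called SC35, ranged over only 0.2 log2 units across all 10 animals. The most variable were SF3B5, HNRPU and HNRPC, with SDs of 0.352, 0.313 and 0.303.

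SF3B5, a small subunit of SF3B, read 8.35, 9.02, 8.93, 8.12 and 8.89 in stable animals 1 to 5 and 8.86, 8.51, 8.76, 8.24 and 8.98 in unstable animals 1 to 5. Stable animals 1 and 4 and unstable animal 4 were the low ones, and the groups overlapped over nearly their whole range. HNRPU, the scaffold attachment factor that binds chromatin and RNA, read 9.24, 9.52, 9.41, 9.98 and 9.15 in stable and 9.71, 9.06, 9.27, 9.42 and 9.78 in unstable animals 1 to 5. Stable animal 4 and unstable animals 1 and 5 were high, and again the groups overlapped.

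Separate probes lay behind some of these rows. The probes carry no gene names in the files, so rows were matched to them by value: 44 member rows equalled 1 probe, 13 equalled the mean of 2 probes, and 5 (HNRPAB, SF3B1, SFRS12, SFRS14 and SNRP70) were not matched. For each of the 13, a single pair of probes gave the row within 0.001 log2 units. In 5 of the 13 both probes were above background on all 10 arrays. In SNRPN and HNRPDL the brighter probe was above it on all 10 and the dimmer on none, so the row mean is held down by a probe without signal. HNRPU had a brighter probe at 10.34 in stable and 10.34 in unstable animals and a dimmer one above background on 1 array. Its spread came with the brighter probe, whose SD within groups was 0.335 against 0.101 for the dimmer.

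HNRPC, the hnRNP protein that binds uridine tracts and keeps cryptic exons out, had probes that disagreed between animals. The brighter probe read 9.27, 9.56, 9.40, 9.41 and 9.33 in stable animals 1 to 5 and 9.20, 9.33, 9.60, 9.14 and 9.47 in unstable animals 1 to 5. The dimmer probe read 8.59, 7.47, 8.49, 7.40 and 8.70 in stable and 9.44, 7.41, 8.67, 7.38 and 9.38 in unstable animals 1 to 5. Seen after the fact, it fell into 3 separate levels, with 4 animals at 7.38 to 7.47, 4 at 8.49 to 8.70 and 2 at 9.38 to 9.44, and each group held animals of the lowest and the middle level. Its SD within groups was 0.849, against 0.152 for the brighter probe. The difference between groups was -0.05 (SE 0.0864) for the brighter and 0.33 (SE 0.463) for the dimmer probe, with limma adjusted p of 0.974 and 0.96 over all 24526 probes. SFRS5, an SR protein, had both probes above background on all arrays and both lower in unstable animals, by -0.16 (SE 0.114) and -0.16 (SE 0.124). Of the 13 genes, 6 had both probes differ in the same direction and 7 in opposite directions. HNRPA1 (brighter -0.068, dimmer 0.137) and SNRPB (brighter 0.041, dimmer -0.028) were among those 7, with both probes above background on all arrays. Over the 26 probes of these 13 genes the smallest limma adjusted p was 0.92. Of these probes 2 had an unadjusted p under 0.05, where 5.15% of all probes did. Those 2 were the dimmer probes of SNRPN and SF3A1, and each was above background on no array.

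**Figure D2:**
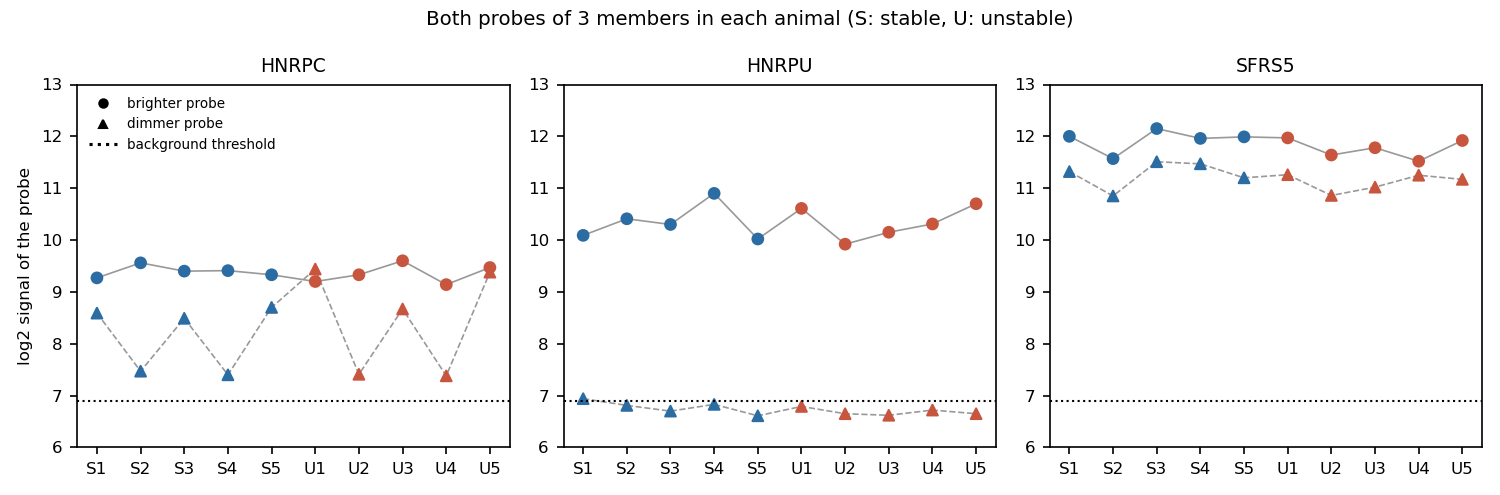
Log2 signal of both probes of HNRPC, HNRPU and SFRS5 in each animal (S1 to S5 stable, blue; U1 to U5 unstable, red); circles are the brighter and triangles the dimmer probe, lines join points of a probe without implying an order, and the dotted line is the mean background threshold. The dimmer HNRPC probe lies at 3 separate levels while the brighter one stays between 9.14 and 9.60.

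The comparison the design sets up is that of animals from unstable with animals from stable social conditions. For the spliceosome and hnRNP genes no difference passed: 0 of the 62 had a limma adjusted p under 0.05 over all 18622 rows, where 0% of all rows did, and the smallest adjusted p among them was 0.892. At an unadjusted p under 0.05 there were 4 members (6.45%), 2 higher and 2 lower in unstable animals, beside 5.13% of all rows. Of all rows 2.41% were higher and 2.73% lower at that level. Among rows above background on all 10 arrays the share was 7.27%, and all 4 of these members were of that kind. In means alone, 32 members were higher and 30 lower in unstable animals, and 48.9% of all rows were higher. Over the 44 members matched to 1 probe the split was 22 to 22 in the authors' values. It was 31 higher to 13 lower with median scaling of the intensities, where 52.4% of all matched rows were higher. For the 34 of them above background on all 10 arrays, median scaling gave 27 higher to 7 lower, and the authors' values 15 to 19. The share among all matched rows above background on all 10 arrays was not counted under median scaling. In the authors' values the median difference was 0.00 log2 units over the 62 members and 0.00 over all rows. Differences ran from -0.21 to 0.17, and 1 member differed by more than 0.2, where 3.60% of all rows did.

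The precision differed between genes. For the 49 genes above background on all 10 arrays, the unadjusted 95% interval of the difference reached 0.0893 to 0.433 log2 units to either side, with a median of 0.156. All 49 intervals lay within 0.5 log2 units of 0. HNRPC, SF3B5 and HNRPU had the widest, from -0.27 to 0.48, from -0.43 to 0.44 and from -0.40 to 0.37. These intervals are not adjusted for the number of rows tested.

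**Figure D3:**
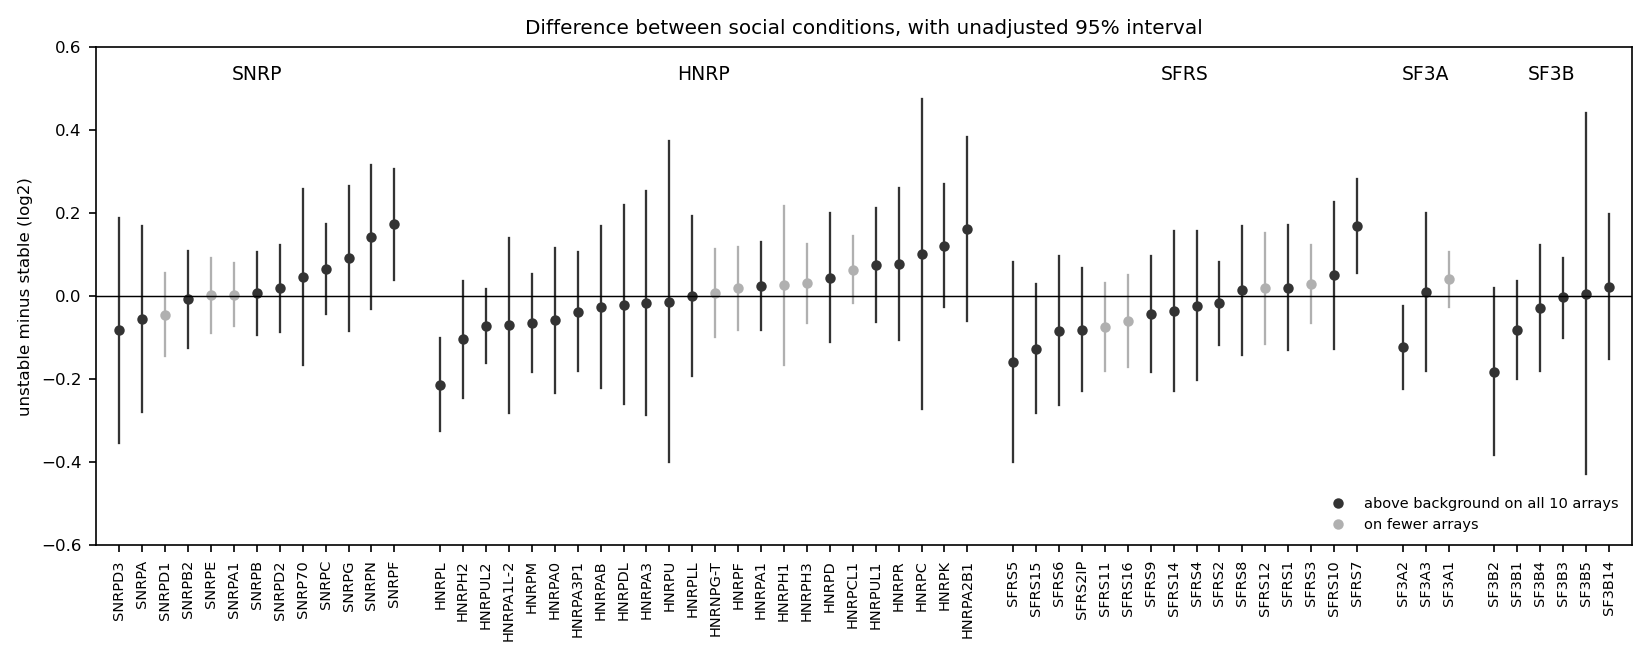
Difference of means, unstable minus stable, for each gene in log2 units, with the unadjusted 95% interval of the limma fit, grouped by family and sorted. Intervals of HNRPL and SF3A2 lie below 0 and those of SFRS7 and SNRPF above it; none of these passed after adjustment over all rows.

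HNRPL gave the smallest p of the members. HNRPL binds CA repeats and represses variable exons of CD45 in human cells. It read 10.41, 10.34, 10.33, 10.33 and 10.48 in stable animals 1 to 5 and 10.09, 10.12, 10.31, 10.09 and 10.21 in unstable animals 1 to 5. Every stable animal was above every unstable one, by a margin of hundredths between stable animals 3 and 4 and unstable animal 3. It was the only member whose groups did not overlap, 1 of 62, where 0.838% of all rows did not. The difference was -0.21 (SE 0.0505), a ratio of 0.863 on the linear scale (limma adjusted p = 0.892). Within slide 1, where stable animal 5 stood beside the 3 older unstable animals, it was -0.302, and without those older animals it was -0.23. With median scaling of the intensities it was -0.116. HNRPLL, which acts on the same CD45 exons, had a difference of 0.00 (SE 0.0867) over all animals and of -0.186 within slide 1.

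SFRS7, an SR protein that also takes part in mRNA export, had the smallest p among genes with higher means. It read 10.61, 10.86, 10.68, 10.77 and 10.69 in stable and 10.90, 10.87, 10.99, 10.81 and 10.87 in unstable animals 1 to 5. Stable animal 2 was above unstable animal 4, and otherwise the unstable animals were higher. The difference was 0.17 (SE 0.0513, limma adjusted p = 0.918), 0.233 within slide 1, 0.122 without the older animals and 0.262 with median scaling.

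SNRPF of the Sm ring read 11.50, 11.72, 11.43, 11.43 and 11.49 in stable animals 1 to 5 and 11.59, 11.65, 11.70, 11.71 and 11.79 in unstable animals 1 to 5. Stable animal 2 stood with the unstable animals and the other 4 stable animals below all of them. The difference was 0.17 (SE 0.0602, limma adjusted p = 0.942), and 0.276 with median scaling. Other proteins of the ring had differences of 0.09 (SE 0.0789) for SNRPG, 0.01 (SE 0.0452) for SNRPB, 0.02 (SE 0.0476) for SNRPD2 and -0.08 (SE 0.123) for SNRPD3, none of which passed. SNRPG stood at -0.037 within slide 1 and at 0.159 with median scaling. SNRPF was not tested against these genes.

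SF3A2, the zinc-finger subunit of SF3A, read 7.74, 7.61, 7.60, 7.64 and 7.65 in stable and 7.56, 7.60, 7.40, 7.58 and 7.46 in unstable animals 1 to 5. Unstable animal 2 reached the lowest stable values and the other 4 unstable animals lay below them. The difference was -0.12 (SE 0.0454, limma adjusted p = 0.942), and -0.124 within slide 1. It was -0.197 with normexp background correction and -0.072 with median scaling. SF3A3 differed by 0.01 (SE 0.0861), and SF3A1 had no signal above background to compare.

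**Figure D4:**
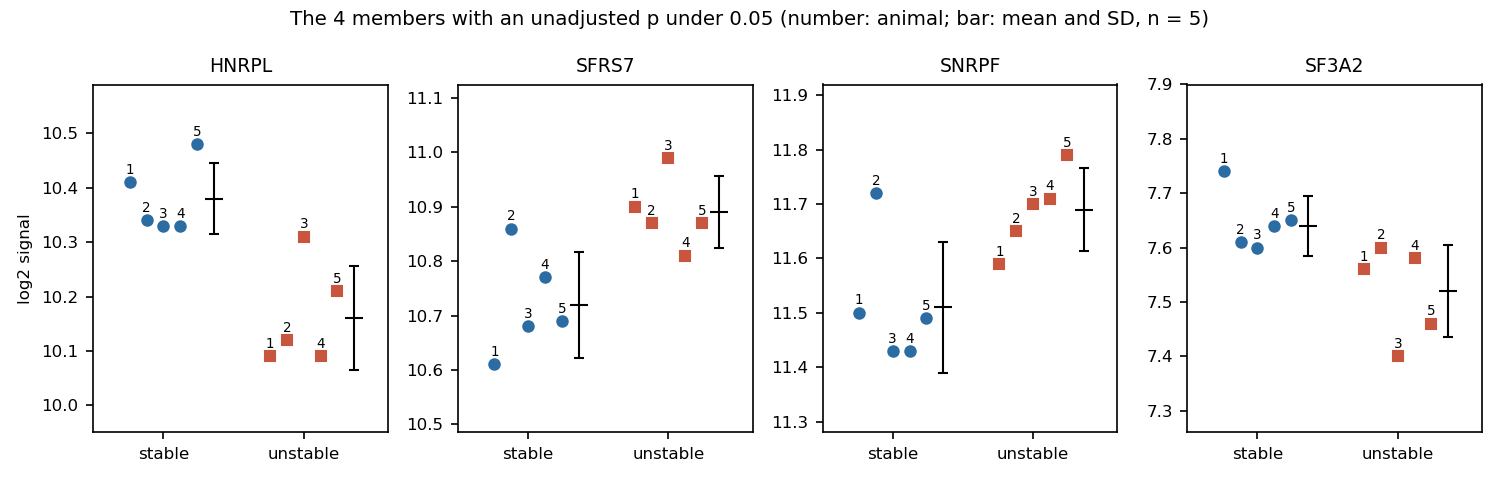
Log2 signal of HNRPL, SFRS7, SNRPF and SF3A2 in each animal (numbers are animal numbers, blue circles stable, red squares unstable; bars show mean and SD, n = 5). HNRPL is the one gene without overlap, from 10.33 to 10.48 in stable and from 10.09 to 10.31 in unstable animals.

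The other genes with the smallest p in each direction had differences nearer to their errors. SF3B2 differed by -0.18 (SE 0.091), SFRS15 by -0.13 (SE 0.0703) and HNRPUL2 by -0.07 (SE 0.0403). With median scaling these were -0.075, -0.047 and -0.029, and SFRS15 was -0.055 within slide 1. HNRPK differed by 0.12 (SE 0.0666), although it was -0.019 within slide 1 and 0.212 with median scaling, and SNRPN by 0.14 (SE 0.0786), which was 0.046 within slide 1. HNRPCL1 differed by 0.06 (SE 0.0364) without signal above background on any array, and by 0.196 with normexp. Their limma adjusted p were 0.942 for SF3B2 and 0.945 for the other 5. The abundant HNRPA2B1 differed by 0.16 (SE 0.1) and HNRPD by 0.05 (SE 0.0701), with limma adjusted p of 0.945 and 0.975.

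By family, the median differences lay between -0.03 and 0.01 log2 units, and neither the counts nor the differences between families were tested. Of 13 SNRP genes 9 had higher means in unstable animals, with a median difference of 0.01 log2 units, and of 24 HNRP genes 13 were higher, with a median of 0.00. Of 16 SFRS genes 10 were lower, with a median of -0.03, and of 6 SF3B genes 4 were lower, with a median of -0.02. Of 3 SF3A genes 2 were higher, with a median of 0.01. The SFRS median turned to 0.055 with median scaling, over the 13 SFRS genes matched to 1 probe. The SF3B median was -0.124 within slide 1 and turned to 0.075 with median scaling, over the 5 SF3B genes matched to 1 probe.

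Family means per animal showed more scatter among the unstable than the stable animals in the HNRP and SFRS families. The stable HNRP mean was 8.88 ± 0.013 (SD, n = 5) and the unstable one 8.88 ± 0.071 (SD, n = 5). For SFRS these were 9.45 ± 0.017 (SD, n = 5) and 9.43 ± 0.064 (SD, n = 5). Unstable animals 2 and 4 were lowest in both families, with HNRP means of 8.82 and 8.80 and SFRS means of 9.38 and 9.34, and unstable animals 3 and 5 were high in HNRP, at 8.94 and 8.96. Gene by gene, 15 of 24 HNRP and 8 of 16 SFRS genes had the larger SD in unstable animals, and 33 of all 62 members (53.2%) did, beside 44.9% of all rows. The difference in scatter itself was not tested. The SF3B family had the opposite order, with an SD of 0.096 in stable and 0.087 in unstable animals, and 1 of its 6 genes was more variable in unstable animals. SF3A also had the larger SD in stable animals, 0.077 against 0.063, although 2 of its 3 genes were more variable in unstable animals. For SNRP the SD was 0.027 in stable and 0.039 in unstable animals. 4 of the 5 stable animals shared a slide while the unstable animals spanned other slides and both age bands. The values of the unstable animals are given here by slide. Unstable animals 4 and 5, both on slide 3, had HNRP means of 8.80 and 8.96 and SFRS means of 9.34 and 9.46. Unstable animals 1 to 3, all on slide 1, had HNRP means of 8.88, 8.82 and 8.94 and SFRS means of 9.49, 9.38 and 9.46. The part of slide and age label in the scatter was not tested.

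**Figure D5:**
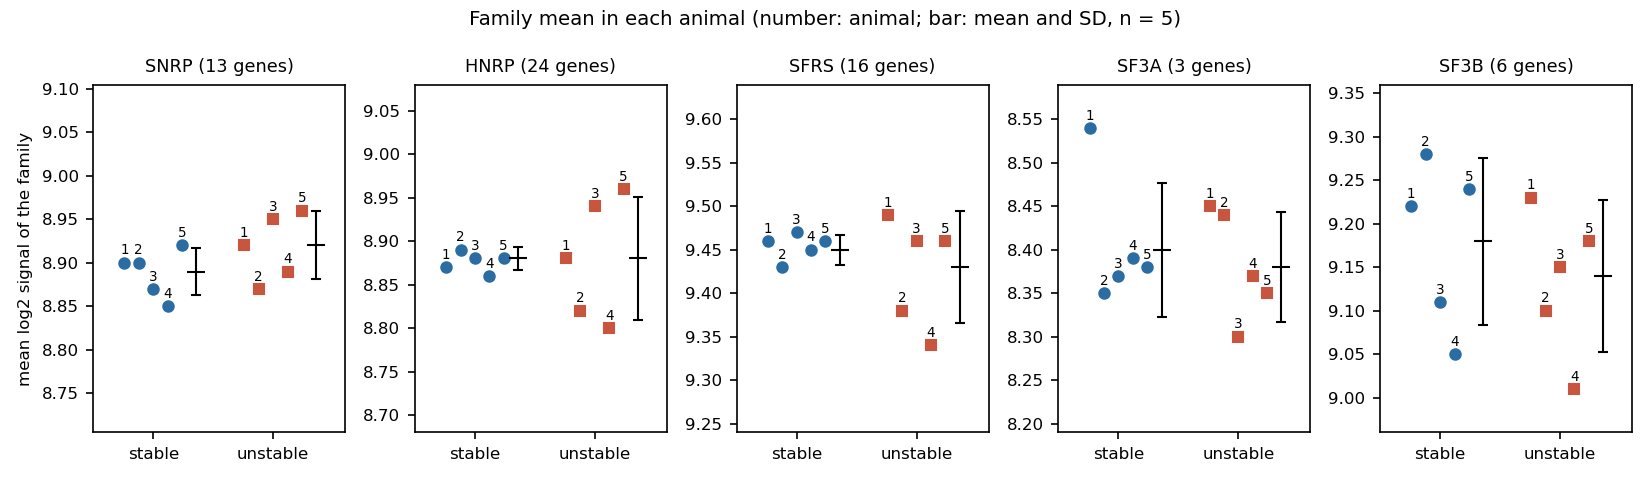
Mean log2 signal over the genes of each family in each animal (numbers are animal numbers, blue circles stable, red squares unstable; bars show mean and SD, n = 5). All panels span 0.4 log2 units; in HNRP and SFRS the stable animals sit close together while unstable animals 2 and 4 lie below them.

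Unstable animal 4 most often had the lowest value. It was the lowest of all 10 animals in 13 of the 49 genes above background on all arrays (26.5%), where it was lowest in 16.8% of all rows of that kind. For SNRPD3 that animal read 7.65 and the other 9 read 8.07 to 8.42, and without that animal its difference moved from -0.08 to 0.034. Stable animal 3 was lowest in 9 of 49 (18.4%, beside 11.9% of all rows). Unstable animal 1 was lowest in 7 of 49 (14.3%, beside 6.70%) and unstable animal 2 also in 7 of 49 (14.3%, beside 9.55%). Unstable animal 4 also had the lowest mean correlation with the other arrays, 0.976, in a range up to 0.985. Stable animal 5 was lowest in 0 of 49, beside 7.20% of all rows, and unstable animal 5 was highest in 8 of 49, beside 10.8%. Lists of marker genes of cell types were also averaged in each animal. The 10 adipocyte genes averaged 8.47 in unstable animal 4, while the others lay at 7.58 to 8.00, and 5 of those genes, FABP4 and LEP among them, were above background on all arrays. The mean of 18 proliferation genes reached 7.66, 7.56 and 7.82 in unstable animals 3, 4 and 5 while the other 7 lay at 7.28 to 7.45, and 15 of the 18 had higher means in unstable animals. T cell genes averaged 8.48 to 8.96 in stable and 8.43 to 8.94 in unstable animals, B cell genes 8.32 to 8.57 and 8.31 to 8.57, and plasma cell genes 8.08 to 8.67 and 8.21 to 8.26. Erythroid genes averaged 7.95 to 8.25 in stable and 7.74 to 8.06 in unstable animals, and all 8 measured were lower. The part of these cell types in the members' values was not tested.

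Splicing genes outside the 5 families were counted beside them. Of 59 measured genes of the spliceosome and its associated factors with other symbols, 31 had higher and 28 lower means in unstable animals. Their median difference was 0.01 log2 units, and 0 passed (3 with an unadjusted limma p under 0.05, or 5.08%). SLU7, a factor of the second splicing step, differed by 0.32 (SE 0.118) and LSM8, a protein of the ring on U6 RNA, by 0.16 (SE 0.0615), while USP39, which helps join the tri-snRNP to the spliceosome, differed by -0.16 (SE 0.0594). These had limma adjusted p of 0.942, and SLU7 stood at 0.094 within slide 1. Of 45 splicing regulators 26 were higher and 19 lower, with a median of 0.01 and 0 with an unadjusted p under 0.05. CLK1, a kinase of SR proteins, differed by 0.10 (SE 0.0554), the related CLK3 by -0.11 (SE 0.0533) and RBM10 by -0.10 (SE 0.0459), with limma adjusted p of 0.945, 0.942 and 0.942. RBM10 stood at 0.002 within slide 1, and CLK1 at 0.023 without the 3 older unstable animals.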

How the data were processed

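Each of 10 male macaques gave 1 lymph node array, and its group and number come from the labels. The authors deposited an intensity table by probe, with column medians that still differ between arrays. The authors also deposited log2 values, 1 row for each of 18622 gene symbols, whose columns share nearly equal distributions; the normalization method is not given in the sources used here. Per the submitters' processing notes GenomeStudio was used, in a version they do not state. The arrays' number limits the precision, and median raw signal lay between 104 and 119.

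All rows entered 1 fit of limma 3.58.1 (R 4.3.3), two-sided and without covariates, by lmFit and eBayes, with Benjamini-Hochberg adjustment over all rows and a threshold of 0.05. This script was tested on simulated data. Background was the mode of log2 signal plus 3 SDs of the values below it. Probe ranks were mapped to a target distribution estimated from the log2 table, and a row was matched to 1 probe within 0.002 or, for members, to the mean of 2 probes within 0.008 log2 units. The reference table of macaque genes held 20 member symbols, 11 only as synonyms and not the other 31. No genome or sequence table was used, so no sequences or coordinates are given.

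The members and gene lists were chosen with earlier results of these data known. Named genes were the 5 members of smallest p in each direction, the extremes of p and signal in each family, the 3 largest and 3 smallest SDs, and a set fixed by role; other members named were picked after their values were seen. Animals with the same number did not deviate together (correlations from -0.0607 to 0.00726), and the labels give no pairing. Alternatives were other variance models, slide, age label, normexp correction (offset 16), median scaling, background filters, and animals left out. Figures were drawn with matplotlib 3.10.9.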

Additional observations from a re-analysis of the deposited data

Results flagged for a closer look

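Of 66 groups of 5 values examined among named genes above background on all arrays, 2 held an animal set apart from the other 4 by more than 0.71 of the group's range, and chance gives about 1 in 20. Both concerned stable animal 2. HNRPA1 was at 7.30 in that animal and at 7.17 to 7.21 in the other stable animals, a gap of 0.714 of the range. SNRPF was at 11.72 there and at 11.43 to 11.50 in the others, a gap of 0.744 of the range. Without stable animal 2 the SNRPF difference between groups was 0.225.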

How the results depend on the processing

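The count of members past the adjusted threshold was 0 under every alternative that gave a test, and 0 to 0 with any 1 animal left out. The count at an unadjusted p under 0.05 was 3 to 6 with 1 animal left out, 1 with trend and robust eBayes, 1 with normexp and quantile normalization over the 44 members matched to 1 probe, and 7 with the replicate number as a block. The block changed no call, and the numbers do not pair the animals. The median difference of SNRP was 0.049 with age label as a covariate and 0.058 without the 3 older unstable animals. That of SF3A was -0.071 and -0.085 in these fits and -0.093 with normexp over 2 genes, which gave -0.056 in the authors' values. That of SF3B was -0.124 within slide 1, which held 1 stable animal. Slide as a fixed block repeats the slide 1 difference for every gene and list, since only that slide held both conditions. The SF3B median turned to 0.075 with median scaling over 5 genes. With median scaling SFRS was at 0.055, other spliceosome genes at 0.077 and splicing regulators at 0.099, each over matched genes only. The split of the members under median scaling was 31 higher to 13 lower, against 22 to 22 for the same 44 genes in the authors' values. HNRP was at 0.055 without stable 2 and unstable 4, an alternative chosen after seeing the data. Leaving out 1 animal gave -0.003 to 0.027 for SNRP, -0.017 to 0.027 for HNRP, -0.053 to -0.005 for SFRS, -0.031 to 0.045 for SF3A and -0.064 to 0.014 for SF3B. Of marker lists, B cell genes were at 0.203 within slide 1 and with slide as a fixed block, plasma cell genes at -0.221 with normexp over 3 genes, which gave -0.21 in the authors' values, and erythroid genes at -0.465 and -0.888 over rows above background on 3 or more and on all 10 arrays; these filters left 4 and 2 genes. The moves of plasma cell and erythroid genes thus come with fewer genes; the cause of the others was not tested. Of 41 named members, 24 took the opposite sign under at least 1 alternative and 17 under none, HNRPL, SFRS7, SNRPF and SF3A2 among the latter. Those genes had the smallest p in the same animals that the alternatives reuse, so their kept sign is no separate support.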
